A study of Rattus norvegicus with 4 samples.

Results

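Matrix metalloproteinases and their tissue inhibitors were described across 2 Dunning rat prostate tumour sublines, G and MAT-LyLu, with 2 arrays per line. The members were the 12 probe sets, of 8799 in the table, that the platform annotation assigns to 10 genes: Mmp2, Mmp3, Mmp7, Mmp9, Mmp10, Mmp13, Mmp14, Timp1, Timp2 and Timp3. A probe set is a group of array probes read together as 1 signal. Per the labels, G is a non-metastatic and MAT-LyLu a highly metastatic rat prostate cancer line, and G served as the control. No treatment, culture condition or passage is given for either. Each condition is represented by 1 cell line, so metastatic behaviour and any other difference between the lines cannot be told apart. The arrays of a line are duplicates per the labels, with nothing on whether they came from separate cultures. The p-values below therefore reflect array-to-array spread only, and that spread may be technical.

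Matrix metalloproteinases (MMPs) are zinc-dependent endopeptidases that cleave collagens, proteoglycans, glycoproteins and many cell surface proteins. Most are secreted as inactive proenzymes, while Mmp14 is held in the plasma membrane, where it cleaves collagen directly and, together with Timp2, brings about activation of the Mmp2 proenzyme. The tissue inhibitors of metalloproteinases (TIMPs) bind the active site of MMPs. In tumours these genes are expressed by stromal cells as well as by the tumour cells.

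The array medians lay between 2998 and 3156 signal units. The log2 signals of the 6555 tested probe sets correlated at r = 0.990 within each line and at r from 0.822 to 0.829 between the lines, over probe sets, which are not independent replicates. The background level of an array, set at the 95th percentile of 23 control probe sets for mouse, yeast and bacterial transcripts, ran from 1891 to 2311. Of 6 epithelial markers on the array, 3 had a probe set above it on at least 1 array, and Krt8 alone of the 4 tested rose (22.5-fold, although only 1 G array was above background). Of the prostate markers, Klk1 passed the background level and the 4 probe sets of Pbsn were under it on every array. The brighter Klk1 probe set was called higher in MAT-LyLu in limma (1.40-fold, adjusted p = 0.023), and the other was under background on every array. All 7 mesenchymal markers passed the background level. On the brightest probe set, 5 of them were lower in MAT-LyLu and the other 2, Acta2 and Vim, did not pass. Another Acta2 probe set fell from 16259 and 10303 in G to 1119 and 1120, under background, in MAT-LyLu, and the remaining one did not pass. The signal of the 7 markers, summed over all their probe sets, was 292397 and 306538 in G against 85560 and 85991 in MAT-LyLu. Genes with several probe sets, such as Col1a1 with 4, count more than once in this sum. The 5 leukocyte markers summed to 20215 and 19830 in G and 20611 and 19883 in MAT-LyLu. The 3 endothelial markers summed to between 6683 and 7231. Only 3 of the 5 leukocyte and 1 of the 3 endothelial genes had a probe set above background on at least 1 array. These sums therefore include background signal and do not show that such cells were present. No tested probe set of either list passed the threshold in limma. The smallest p among the leukocyte probe sets was that of M10072mRNA_s_at, 1 of 2 tested for Ptprc, which was under background on every array (unadjusted p = 0.020, adjusted p = 0.057). The part that the mesenchymal difference plays in the results below was not tested.

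Of the members, 4 lie in one cluster of MMP genes in the rat genome, and their promoters hold the same short motifs marked below. They are shown here because Mmp3 fell while the other 3 were not called lower. Whether the promoters bear on these differences was not tested. In the RefSeq table of the GRCr8 assembly, 10 consecutive protein-coding genes on chromosome 8 are MMP genes, in the order Mmp13, Mmp12, Mmp1b, Mmp3, Mmp1, Mmp10, Mmp8, Mmp27, Mmp20 and Mmp7, and 6 of them had a probe set. RefSeq promoter sequences were matched for 7 of the 10 genes, and the 250 bases before the annotated start were searched. None was matched for Mmp2, Mmp9 and Mmp14, so the MMP promoters described here are those of this cluster only. Capitals mark TGANTCA, where N is any base (the binding pattern of AP-1 factors, which reads the same on both strands), and TATAAA on the gene's strand. The stretches run from 110 to 21 bases before the start on the plus strand of GRCr8, at chr8:12782719-12782808 for Mmp13, chr8:12925171-12925260 for Mmp3, chr8:12974597-12974686 for Mmp10 and chr8:13132933-13133022 for Mmp7.
Mmp13: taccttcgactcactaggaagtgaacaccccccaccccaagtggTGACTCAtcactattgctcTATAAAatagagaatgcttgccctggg
Mmp3: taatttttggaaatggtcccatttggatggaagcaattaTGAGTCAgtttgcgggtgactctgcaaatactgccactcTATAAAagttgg
Mmp10: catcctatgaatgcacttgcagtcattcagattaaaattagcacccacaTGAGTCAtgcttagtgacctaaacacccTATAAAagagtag
Mmp7: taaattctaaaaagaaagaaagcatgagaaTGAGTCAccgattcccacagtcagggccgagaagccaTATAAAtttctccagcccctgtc

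TGANTCA was present in all 4 of these promoters and TATAAA in all 4, against 6.34% and 8.06% of the 33469 promoters in the RefSeq table. The 4 genes come from the same cluster and cannot be taken as independent, and no enrichment was tested. The TGANTCA matches began 66 bases before the start in Mmp13, 71 in Mmp3, 61 in Mmp10 and 80 in Mmp7. The motif AGGAAG, searched on both strands, was present in 3 of the 4 (Mmp13, Mmp3 and Mmp7) and in 29.5% of all promoters. The promoters of the 3 TIMP genes held neither TGANTCA nor TATAAA, and all 3 held the GC box GGGCGG on one strand or the other, against 30.5% of all promoters and none of the 4 MMP promoters. A match is a description of these letters and not of binding.
The TIMP genes that were lower in MAT-LyLu are shown with the GC box in capitals, from 130 to 21 bases before the start on the minus strand, at chr10:104089235-104089344 for Timp2 and chr7:19459579-19459688 for Timp3.
Timp2: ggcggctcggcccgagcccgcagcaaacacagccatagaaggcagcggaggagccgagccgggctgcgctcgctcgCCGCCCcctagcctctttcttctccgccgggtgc
Timp3: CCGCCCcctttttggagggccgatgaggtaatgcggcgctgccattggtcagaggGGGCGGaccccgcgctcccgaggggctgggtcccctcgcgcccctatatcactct

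The comparison asked which of these genes differ between MAT-LyLu and G. Mmp14, Mmp3, Timp2 and Timp3 fell in MAT-LyLu, Timp1 rose, Mmp13 rose slightly, and Mmp2, Mmp7, Mmp9 and Mmp10 did not pass the test. Signals are the authors' linear MAS5 values, and differences are MAT-LyLu minus G on the log2(signal + 16) scale with standard errors (SE) from limma and p-values adjusted over all probe sets tested. All 12 probe sets passed the filter on low signals. Of these, 3 were higher, 4 lower and 5 did not pass at an adjusted p under 0.05, where 13.6% and 20.1% of all tested probe sets were higher and lower. The 7 calls are 58.3% of the members against 33.7% of all tested probe sets. A change of 2-fold or more was reached by 3 members that fell (background 4.74%) and 1 that rose (3.62%). The median log2 difference of the 12 was -0.038, and that of all tested probe sets -0.028.

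**Figure D1:**
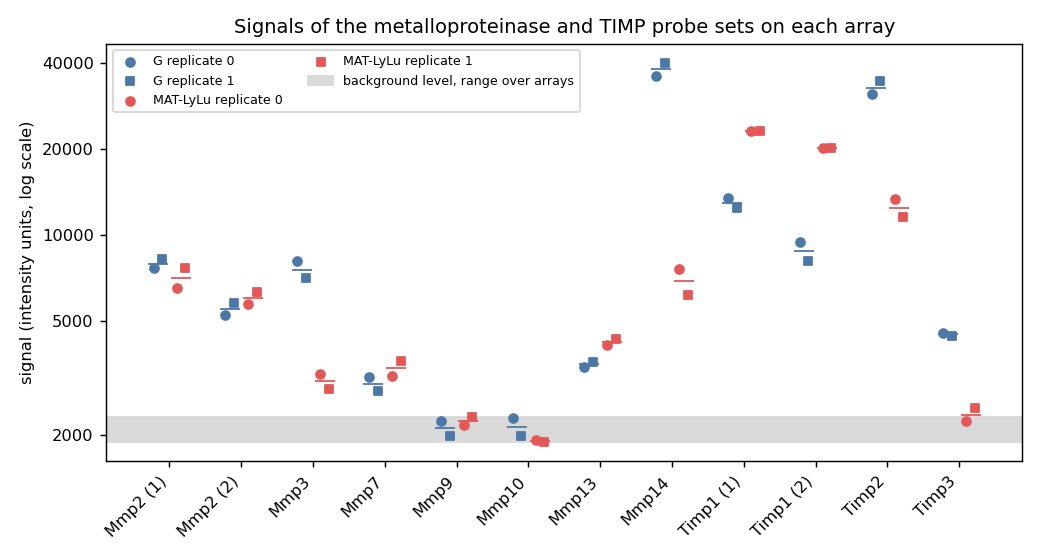
Signal of each metalloproteinase and TIMP probe set on each of the 4 arrays, on a log axis in intensity units; points are arrays, short bars are line means and the grey band is the range of the background level over the arrays (1891 to 2311). Mmp2 (1) is probe set U65656_at and (2) X71466_at, Timp1 (1) is rc_AI169327_at and (2) rc_AI169327_g_at. Mmp14, Mmp3, Timp2 and Timp3 are lower on both MAT-LyLu arrays, Timp1 is higher on both, and Mmp9 and Mmp10 lie at the background level.

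Mmp14, the membrane-anchored collagenase, had the largest difference among the members. Its probe set X83537_at read 36124 and 40149 on the G arrays and 7632 and 6214 on the MAT-LyLu arrays. The lines did not overlap, and every value was above the background level and under the saturation limit. The signal fell 5.52-fold, with a log2 difference of -2.46 (SE 0.12, 95% interval -2.75 to -2.18, adjusted p = 2.7e-06). Among the 6555 probe sets tested, this was the fall of rank 61 by fitted size. In bulk RNA, fewer expressing cells and less RNA per cell cannot be told apart.

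Mmp3, or stromelysin-1, which degrades proteoglycans, laminin and fibronectin and activates other MMP proenzymes, fell as well. Probe set X02601_at read 8123 and 7070 in G and 3272 and 2914 in MAT-LyLu. Both MAT-LyLu arrays lay under both G arrays and remained above background. The fall was 2.45-fold, with a log2 difference of -1.29 (SE 0.10, adjusted p = 4.3e-05).

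Of the other members of the chromosome 8 cluster, Mmp13 was called higher and Mmp7 and Mmp10 did not pass. Mmp13, the rodent interstitial collagenase, read 3471 and 3606 in G and 4145 and 4342 in MAT-LyLu (M60616_at). The arrays did not overlap, and the rise was small, 1.20-fold, with a log2 difference of 0.26 (SE 0.08, adjusted p = 0.043). This call was lost whichever array was left out, with adjusted p-values from 0.071 to 0.21, and without the intensity trend in the variance model (0.0503), so it rests on all 4 arrays and on that model. The 95% interval of Mmp13, 0.07 to 0.45, and that of Mmp3, -1.53 to -1.05, were apart.

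Mmp7, or matrilysin, an MMP of glandular epithelia, read 3194 and 2848 in G and 3232 and 3644 in MAT-LyLu (L24374_at). Both MAT-LyLu arrays were the higher ones, by less than the test required. The log2 difference of 0.19 (SE 0.10) did not pass (adjusted p = 0.21), and its 95% interval ran from -0.05 to 0.42. Mmp10, or stromelysin-2, read 2290 and 1992 in G and 1925 and 1896 in MAT-LyLu (M65253_at). It was under the background level on 1 array of each line, and its log2 difference of -0.16 (SE 0.10, 95% interval -0.39 to 0.07, adjusted p = 0.27) did not pass. The other genes of the cluster with a probe set, Mmp12 (687 to 812) and Mmp8 (510 to 657), were under the background level on every array and were removed by the filter. The interval of Mmp7 leaves room for a change smaller than that of Mmp3. With signals this near background, a difference of Mmp10 could be missed whatever its interval. For Mmp12 and Mmp8 no difference was measurable on these arrays.

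The gelatinases Mmp2 and Mmp9, which cleave denatured collagen and the type IV collagen of basement membranes, did not pass. Mmp2 was read by 2 probe sets. On U65656_at it read 7693 and 8257 in G and 6543 and 7663 in MAT-LyLu, and on X71466_at 5259 and 5806 in G and 5768 and 6323 in MAT-LyLu. These probe sets went in opposite directions, with log2 differences of -0.17 (95% interval -0.41 to 0.07, adjusted p = 0.26) and 0.13 (95% interval -0.09 to 0.34, adjusted p = 0.35). Both were above background on every array, so Mmp2 was measured in both lines, and the widest bound of either interval was the log2 difference of -0.41.

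Mmp9 read 2246 and 1993 in G and 2174 and 2314 in MAT-LyLu (U24441_at). The arrays overlapped, and 1 G array was under the background level. The log2 difference was 0.08 (SE 0.10, 95% interval -0.14 to 0.31, adjusted p = 0.56). With signals this near background, a difference of Mmp9 could be missed.

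Among the inhibitors, Timp1 rose and Timp2 and Timp3 fell. Timp1, a secreted inhibitor of most soluble MMPs and a weak inhibitor of membrane-type MMPs, was read by 2 probe sets from 1 expressed sequence tag, which share their target. On rc_AI169327_at it read 13482 and 12470 in G and 23201 and 23221 in MAT-LyLu, and on rc_AI169327_g_at 9456 and 8126 in G and 20174 and 20288 in MAT-LyLu. On both, each MAT-LyLu array was above each G array. The rises were 1.79-fold (log2 difference 0.84, SE 0.09, adjusted p = 2.8e-04) and 2.31-fold (log2 difference 1.21, SE 0.10, adjusted p = 6.0e-05).

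Timp2, which inhibits MMPs and also bridges Mmp14 and the Mmp2 proenzyme at the cell surface, read 31207 and 34637 in G and 13409 and 11631 in MAT-LyLu. The fall was 2.63-fold, with a log2 difference of -1.40 (SE 0.11, adjusted p = 4.6e-05). Its probe set, S72594_s_at, is of a type that can match related transcripts. Timp3, a matrix-bound inhibitor of MMPs and of ADAM proteases, read 4561 and 4449 in G and 2239 and 2483 in MAT-LyLu (U27201_at). It fell 1.90-fold (log2 difference -0.93, SE 0.09, adjusted p = 1.2e-04), and the MAT-LyLu arrays lay just above their background levels of 1891 and 2311. The lines were apart on both arrays for each of the 3 inhibitors. Across all members the lines did not overlap for 10 of 12 probe sets, against 67.4% of all tested probe sets.

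**Figure D2:**
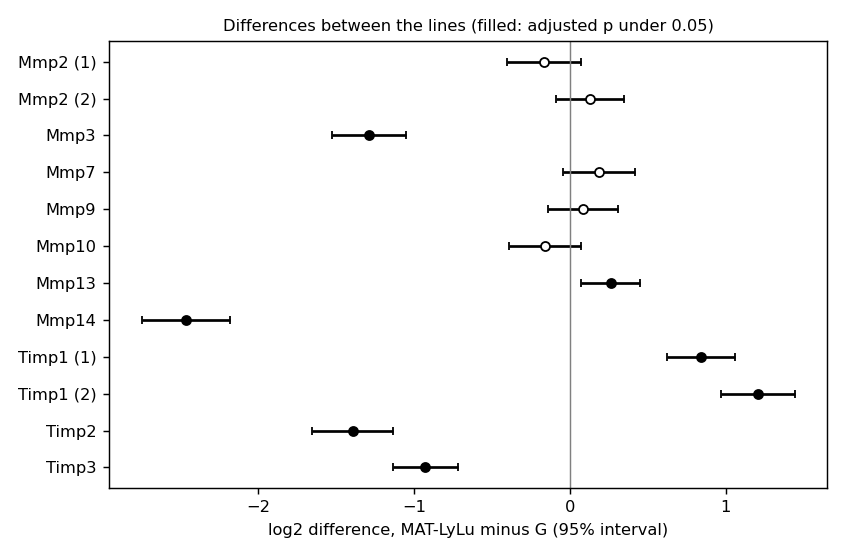
Log2 difference between the lines (MAT-LyLu minus G) for each member probe set, with its 95% interval from the limma fit; filled points have an adjusted p under 0.05. Mmp14 lies at -2.46, Timp2, Mmp3 and Timp3 between -1.40 and -0.93, and the probe sets of Timp1 at 0.84 and 1.21.

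**Figure D3:**
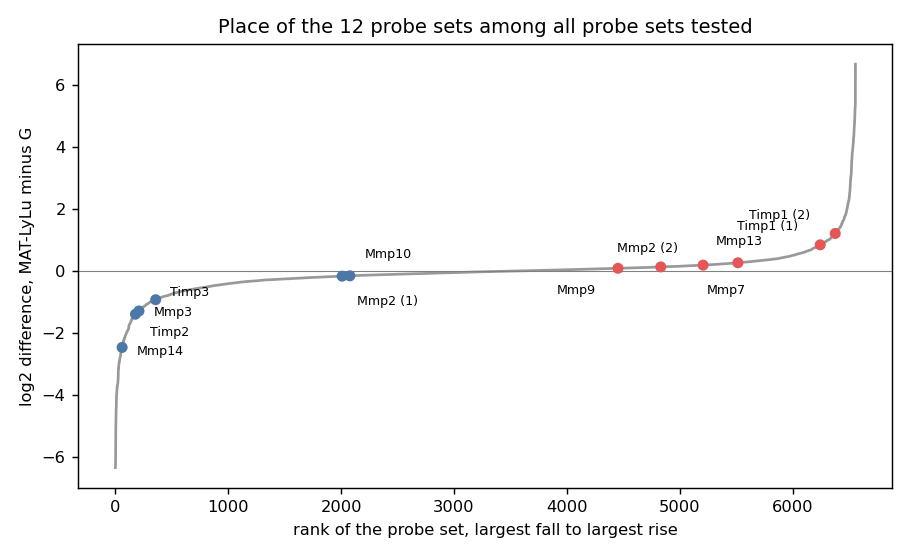
All 6555 tested probe sets ordered by their fitted log2 difference (grey line), with the 12 members marked as points, blue for a negative and red for a positive difference. Mmp14, Timp2, Mmp3 and Timp3 hold ranks 61, 179, 210 and 358 from the largest fall, and Timp1 ranks 180 and 313 from the largest rise.

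By fitted size, Timp2, Mmp3 and Timp3 held ranks 179, 210 and 358 among falls, and the Timp1 probe sets ranks 180 and 313 among rises, as the plot of all ordered differences shows. The 5 members that did not pass, and Mmp13, lay between rank 2009 from the largest fall and rank 1042 from the largest rise. Under quantile, median and cyclic loess scaling, the member counts stayed at 3 higher and 4 lower. The split of all tested probe sets moved more, from 891 higher and 1318 lower (40.3% of calls higher) to 1103 and 1160 with quantile (48.7%), 1079 and 1158 with median (48.2%) and 1054 and 1213 with cyclic loess scaling (46.5%).

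Of 17 further MMP and inhibitor genes listed, 6 had a probe set and 4 were tested, with 1 higher, 2 lower and 1 not passed on the brightest probe set (background over genes 13.8% higher and 19.6% lower) and a median log2 difference of -0.15. A2m, or alpha-2-macroglobulin, a broad protease trap, read 24921 and 21852 in G and 9784 and 8202 in MAT-LyLu, a 2.60-fold fall (adjusted p = 6.6e-05). That probe set can match related transcripts. Of the 4 tested A2m probe sets, 2 fell and 2 did not pass. Mmp11, or stromelysin-3, fell 1.30-fold from 3980 ± 109 to 3069 ± 79.3 (SD, n = 2). The membrane-type Mmp16 was under background on both G arrays, at 1663 and 1582, and on 1 MAT-LyLu array (2029 and 2103). It was called higher in limma (adjusted p = 0.019), but no size is given because these signals lie at the background level. Mmp23 was under the background level on every array and did not pass.

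Among ADAM and other zinc metallopeptidases, 14 of 28 listed genes had a probe set and 13 were tested. Of these, 1 was higher, 4 lower and 8 not passed, with a median log2 difference of -0.10 (background over genes 13.8% higher, 19.6% lower). Ece1, the endothelin-converting enzyme, fell 1.68-fold from 12088 ± 713 to 7184 ± 1.90 (adjusted p = 3.4e-04), and both of its probe sets were lower. Adam10, a sheddase of Notch and cadherins, fell from 3611 ± 194 to 1895 ± 268, at least 1.72-fold, since both MAT-LyLu arrays were under background. Mme, or neprilysin, fell 1.44-fold on 1 of 2 probe sets, with 1 MAT-LyLu array under background, and Nrdc, or nardilysin, rose 1.40-fold. Adam17, the sheddase of tumour necrosis factor, had a log2 difference of 0.17 and did not pass (adjusted p = 0.17).

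Genes for activators, receptors and partners of MMPs were measured for 14 of 21 listed. Of these, 6 were higher, 2 lower and 6 not passed, with a median log2 difference of 0.07 (background over genes 13.8% higher, 19.6% lower). Plau, the urokinase activator of plasminogen, rose from 1291 and 1654 in G to 6807 and 6884 in MAT-LyLu, at least 3.31-fold. Plat, the tissue activator of plasminogen, fell from 3513 and 3048 to 900 and 870, at least 1.56-fold. Cav1, the caveolar protein, rose at least 13.4-fold, and the heparan sulfate proteoglycan Sdc1 rose 5.05-fold, with both of its probe sets higher. Furin, which cuts the Mmp14 proenzyme, had a log2 difference of -0.02 on its brighter probe set and did not pass (adjusted p = 0.91), and neither did Pcsk6 or Pcsk7 of the same convertase family.

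Of 16 transcription factors known from MMP promoters, 12 were tested. Of these, 4 were higher, 2 lower and 6 not passed, with a median log2 difference of 0.06 (background over genes 13.8% higher, 19.6% lower). AP-1 subunits, which bind the TGANTCA pattern printed above, went in different directions. Fosl1, or Fra-1, rose from 1015 and 1161 in G to 17549 and 14050 in MAT-LyLu, at least 7.59-fold (adjusted p = 2.8e-07). Jun rose 3.58-fold from 3626 ± 28.2 to 13021 ± 441, with 3 of 4 probe sets higher, and Junb was also higher. Jund fell at least 1.52-fold, and Fos did not pass on any of its 3 probe sets. Egr1 rose 3.31-fold on its brightest probe set, where only 1 G array was above background, and 2 of its 4 probe sets did not pass. The genes with TGANTCA in the searched window, Mmp3, Mmp7, Mmp10 and Mmp13, included a fall, a small rise and 2 that did not pass. Of these, Mmp10 lay near background, where a difference could be missed. Binding was not measured, and whether AP-1 subunits act on these genes was not tested.

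Among matrix substrates, 20 of 26 listed genes were tested. Of these, 4 were higher, 9 lower and 7 not passed, with a median log2 difference of -0.31 (background over genes 13.8% higher, 19.6% lower). The smallest p-values were those of Lum, Col1a2, Eln and Col1a1, all lower in MAT-LyLu. Of the 4 that rose, 2 are named after their values were seen. Fn1, or fibronectin, read 9019 and 7980 in G and 27005 and 22718 in MAT-LyLu on its brightest probe set, a 2.92-fold rise (adjusted p = 3.1e-05), and all 5 of its tested probe sets were higher. Spp1, or osteopontin, a secreted glycoprotein that MMPs cleave, rose 4.12-fold (adjusted p = 2.4e-06). Col1a1, a fibrillar collagen chain and a substrate of Mmp14 and Mmp13, fell from 39741 and 47723 to 2604 and 2742, 16.2-fold, on a probe set that can match related transcripts. All 4 of the Col1a1 probe sets were lower, the rest by 6.80-fold, 6.19-fold and at least 19.2-fold. Lum fell at least 14.6-fold, Col1a2 at least 14.2-fold and Eln at least 11.3-fold. With quantile normalization the matrix list had 5 higher and 10 lower, and the transcription factor list 5 higher and 1 lower, while the counts of the other 3 lists did not move.

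**Figure D4:**
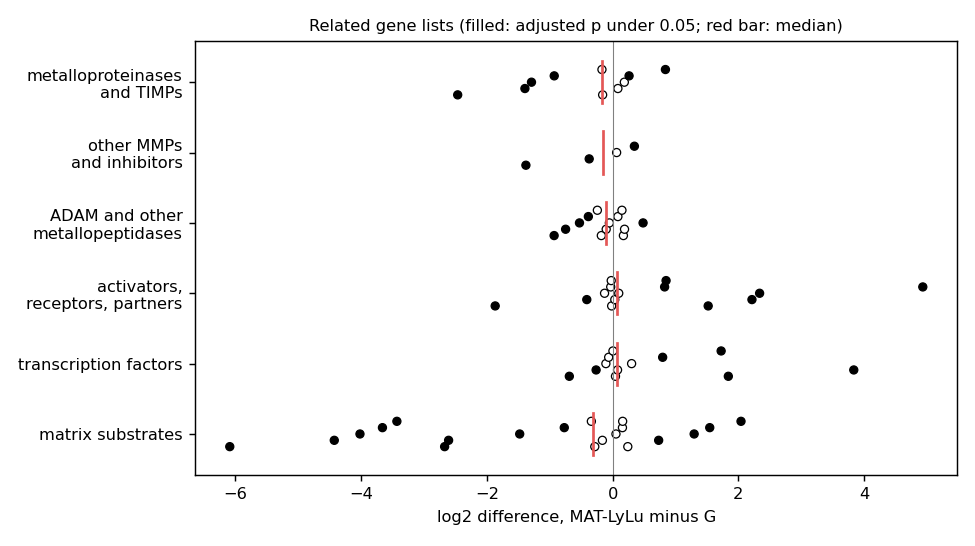
Log2 difference (MAT-LyLu minus G) of each tested gene of the members and of 5 related lists, by brightest tested probe set; filled points have an adjusted p under 0.05 and red bars are list medians. Values of genes under background in 1 line are fitted values and not measured sizes; the medians run from -0.31 for matrix substrates to 0.07 for activators, receptors and partners.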

How the data were processed

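The authors deposited linear signal intensities, 1 column per array. Per the submitters' processing notes, MAS5, an Affymetrix method, summarised the probe sets. Its version, scaling and filters and the array's genome build were not given in the sources used here. These deposited intensity values were tested without further scaling, as log2(signal + 16). The 59 controls and the 25% of other probe sets with the lowest mean log2 signal were removed, and 6555 remained. The design named a mean without its scale: linear means were ranked first, and log2 means were adopted after both had been run, because their totals matched an earlier treatment of these data. No member call differed. The lines were compared by limma 3.58.1 (R 4.3.3, lmFit and eBayes with trend), 2-sided, and p-values were adjusted by Benjamini-Hochberg over all probe sets tested, with a threshold of 0.05. Folds are 2 to the power of the fitted difference. Where 1 line was under background on both arrays and the other above it on both, a fold is written "at least" and computed with signals raised to that level. Signals within 5% of an array's maximum count as saturated. The members, lists and background level were chosen with earlier results of these data known. A list gene was represented by its brightest tested probe set, and up to 4 called genes with the smallest p were to be named per list. Probe sets that can match related transcripts also gave the changes printed for Krt8, A2m, Mme, Nrdc, Sdc1, Egr1, Col1a2 and Acta2. Mmp23, Adam17, Furin, Pcsk6, Pcsk7, Fos, Fn1, Spp1 and other genes outside that rule were named after their values were seen. Gene names follow the platform annotation, updated by RefSeq identifiers (7018 probe sets with 1 symbol, 308 with several, 1473 with none). On simulated data for this comparison, over 6555 probe sets, 100 of 100 probe sets changed 2-fold were found and 10 unchanged ones were called. The simulated spread depended on mean signal alone, and a smaller share of probe sets was changed than was called in the data. These counts therefore do not give the recovery on the real signals. The number of arrays limits the precision, and an exact permutation test of 2 arrays against 2 cannot go below p = 0.33.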

Additional observations from a re-analysis of the deposited data

How the results depend on the processing

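The falls of Mmp14, Mmp3, Timp2 and Timp3 and the rises of both Timp1 probe sets kept their direction and stayed past the threshold in all 16 alternatives (pseudocount, filter, scaling, variance model, replicate block, each array left out in turn and a floor at the background level). Their log2 differences ranged from -2.61 to -2.32 for Mmp14, -1.39 to -1.19 for Mmp3, -1.50 to -1.28 for Timp2 and -1.004 to -0.855 for Timp3. Those of Timp1 ranged from 0.78 to 0.91 and from 1.10 to 1.31. Mmp13 kept its direction in all 16 and lost its call in 5, the 4 with an array left out and the one without the intensity trend (adjusted p from 0.023 to 0.21 over the alternatives). Mmp9, not called, ranged from -0.0021 (without G replicate 1) to 0.17 with an array left out. Mmp9 and Mmp10 were not tested with the lower 50% left out. With 1 array left out, 2 members were higher and 4 lower each time, and the lone array of a line was assumed to vary like the others. With the replicate number as a block, 951 probe sets were higher and 1402 lower (891 and 1318 without it), and 3 and 4 members. Deviations of same-numbered arrays correlated at 0.16, and the labels do not tie the numbers to a shared culture or day. Ranking the filter by linear means, which was run first and became an alternative after the data were seen, gave 908 higher and 1330 lower, and 3 and 4 members. Signals near background limit what can be said of Mmp9, Mmp10 and Timp3 in MAT-LyLu.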

Other observations

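The probe sets whose signals over the 4 arrays were most like those of Mmp14 (Euclidean distance of log2 signals centred on the probe set's own mean) read Chrna7, a nicotinic acetylcholine receptor subunit, at a distance of 0.073, Hsph1, a heat shock protein, at 0.14, and Lamp1, a lysosomal membrane protein, at 0.17. Their log2 differences were -2.46 (SE 0.12), -2.47 (SE 0.14) and -2.55 (SE 0.09). Likeness over 4 arrays in 2 lines reflects mainly the size of the difference between the lines.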
